A study of Mus musculus with 9 samples.

Results

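The nuclear receptor genes were examined as one family across the 3 groups of libraries. The members were a named set of 46 mouse receptor genes, of 50686 genes in the count table. They were chosen by symbol without a cutoff on measured values, but with earlier results of these data known, among them the rise of Nr2f2. Libraries were made from MC3T3-E1 cells without treatment (control, n = 3), from MC3T3-E1 cells given SB216763 at 10 µM for 14 days (SB216763-treated, n = 3) and from mouse pulmonary endothelial cells (ECs, n = 3). MC3T3-E1 is an established mouse osteoblast line, so both osteoblast groups carry the background of a single line. SB216763 blocks the kinase GSK3, glycogen synthase kinase 3. The ECs were isolated by cell sorting. The time in culture of the control cells, the age and strain of the mice behind the ECs, and whether the libraries of a group came from separate cultures or animals are not given in the sources used here. The p-values therefore measure the spread between these libraries, which may be technical. The treated and control comparisons with ECs share libraries with each other and with the comparison of treatment, so their values are given side by side and not as independent results.

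Nuclear receptors are transcription factors that bind DNA through a zinc finger domain and, in many members, switch their activity when a small lipophilic ligand enters the ligand-binding domain. The steroid receptors bind as homodimers, whereas the receptors for retinoic acid, thyroid hormone, vitamin D, fatty acids and oxysterols bind as heterodimers with an RXR partner. Others, such as the COUP-TFs, the NR4A receptors and the REV-ERBs, have no classical hormone ligand, and their activity follows largely from how much receptor a cell makes. In bone the vitamin D, glucocorticoid and estrogen receptors are known regulators of osteoblasts, and in the endothelium COUP-TFII, the product of Nr2f2, is known as the determinant of venous identity.

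Promoter sequences of 3 members are given first, for genes that changed with treatment. Each is the RefSeq window on GRCm38.p6 from 250 bases before to 50 bases after a transcript start, printed 5′ to 3′ on the strand of the gene, with the matched motif in capitals. In Nr2f2 the capitals mark CTTTGA, the core letters bound by TCF/LEF factors, which are the DNA-binding partners of β-catenin. In Rarb they mark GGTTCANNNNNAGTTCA, the pair of half-sites of its known retinoic acid response element, and in Nr4a3 they mark TGACGT, the core of the cAMP response element.
Nr2f2, chr7:70366697-70366996, minus strand: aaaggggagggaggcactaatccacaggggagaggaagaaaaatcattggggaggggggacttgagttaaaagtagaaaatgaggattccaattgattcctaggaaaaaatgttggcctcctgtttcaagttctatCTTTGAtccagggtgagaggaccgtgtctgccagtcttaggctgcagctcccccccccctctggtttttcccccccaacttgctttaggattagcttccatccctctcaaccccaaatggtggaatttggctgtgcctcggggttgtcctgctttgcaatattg
Rarb, chr14:16575427-16575726, minus strand: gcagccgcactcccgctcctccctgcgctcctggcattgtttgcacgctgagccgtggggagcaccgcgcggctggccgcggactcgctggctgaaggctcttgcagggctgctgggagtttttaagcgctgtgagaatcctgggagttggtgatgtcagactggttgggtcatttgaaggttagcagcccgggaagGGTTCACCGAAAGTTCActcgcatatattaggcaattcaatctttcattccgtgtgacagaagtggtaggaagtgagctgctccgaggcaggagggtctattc
Nr4a3, chr4:48045055-48045354, plus strand: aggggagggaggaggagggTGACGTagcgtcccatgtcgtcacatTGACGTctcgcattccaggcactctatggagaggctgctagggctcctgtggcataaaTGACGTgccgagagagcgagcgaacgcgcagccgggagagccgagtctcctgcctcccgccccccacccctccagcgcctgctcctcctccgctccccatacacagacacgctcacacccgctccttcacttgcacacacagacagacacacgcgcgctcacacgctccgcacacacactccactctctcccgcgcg

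Windows were found for 42 of the 46 members, with 63 windows in all, and 32851 windows of all genes were searched in the same way on both strands. CTTTGA stood at positions -114 to -109 from the Nr2f2 start and in 6 of the member windows (9.52%), against 16% of all windows. The Rarb element stood at -53 to -37, and its letters occurred in 2 of all windows (0.00609%), those of Rarb and of the gene model Gm52524. TGACGT occurred 3 times in the Nr4a3 window, with first bases at -231, -205 and -147, and in 5 member windows (7.94%) against 7.51% of all windows. The receptor half-site AGGTCA was present in 12 member windows (19%) and in 16.3% of all windows, and the E-box CACGTG in 6 (9.52%) and 7.15%. Matches of different motifs did not overlap in the member windows. These matches describe letters in the reference and are not measured binding sites, and the motifs were picked with the expression values known.

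The 9 libraries held 30990107 to 68946333 counts. Levels are given as CPM, counts relative to the library total after scaling by the trimmed mean of M-values (TMM), and levels of different genes are compared only as CPM per kb of exon. The label of ECs was met by 10 endothelial markers, which summed to 7133 to 7281 CPM in ECs, 3.25 to 4.04 CPM in control cells and 3.02 to 3.53 CPM in treated cells, and none of the 10 was called between treated and control cells at a log2 change of 1 or more, the size limit used for the lists here (log2 fold changes from -1.51 to 0.75). That count was 0 with edgeR, DESeq2 and limma-voom at an adjusted p under 0.01, and 1, Sox17 with a negative value, with edgeR and limma-voom at an unadjusted p under 0.05. The 10 osteoblast markers summed to 43930 to 59350 CPM in control cells, 8139 to 8413 CPM in treated cells and 45.4 to 64.8 CPM in ECs. Smooth muscle and pericyte markers, 8 genes, summed to 3129 to 3281, 898 to 909 and 24.5 to 25.8 CPM in the same order. All 8 leukocyte markers together reached 26.2 to 27.8, 8.28 to 9.83 and 56.3 to 58.4 CPM, with Cd68 at 46.6 ± 0.986 CPM in ECs and Ptprc and Cd3e at or near 0 in every group. The 6 adipocyte markers stayed under 0.183 CPM in sum in every library, and the 7 lung epithelium markers stayed under 3.79 CPM. The 6 chondrocyte markers summed to 55.7 to 67.3, 119 to 123 and 0.85 to 1.11 CPM. The 5 lymphatic endothelial markers summed to 90.8 to 102 CPM in control cells, 91.8 to 102 CPM in treated cells, nearly all of it Pdpn, and 248 to 265 CPM in ECs, where Lyve1 averaged 87.8 CPM and Flt4 169.7 CPM, while Prox1, the defining gene, was under 3 counts in every library. The part that these differences in markers play in the receptor values was not tested. In bulk RNA, fewer cells of a type and less RNA per cell cannot be told apart.

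Of the 46 receptor genes, 30 had enough counts to be tested and 16 did not. Treated cells carried more mRNA for several receptors, led by Esr1, Rarb, Nr2f2, Nr2f1, Nr3c2 and Nr6a1, and less mRNA for Vdr, Nr4a2 and Nr4a3. At the limits the study used, log2 changes of 2 or more in size and an adjusted p under 0.01, 3 members rose, against 3.81% of the 15531 genes tested, and 0 fell, against 5.84% (edgeR). The lowest fitted log2 fold change of any tested member was -1.48, so no unadjusted p would give a call in that direction, and DESeq2 and limma-voom also gave 0. At a log2 change of 1 or more, 7 rose (11.1% of all tested genes rose) and 3 fell (13% fell). At any fold, 19 rose (32.9%) and 4 fell (32%), and 20 members lay higher and 4 lower with no overlap of libraries (37.3% and 35.9% of all tested genes). The median log2 fold change of the tested members was 0.44, and that of all tested genes was 0.01. Scaling by library totals alone moved the median of all genes by 0.20, and the split at any fold became 22 higher and 4 lower among the members and 43.3% higher and 24.6% lower among all tested genes. At a log2 change of 1 or more it became 8 and 3 members and 15.3% and 10.2% of all tested genes. Counts over the tested members are descriptive, since a gene such as Rorb or Pparg entered the test through its high group alone.

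**Figure D1:**
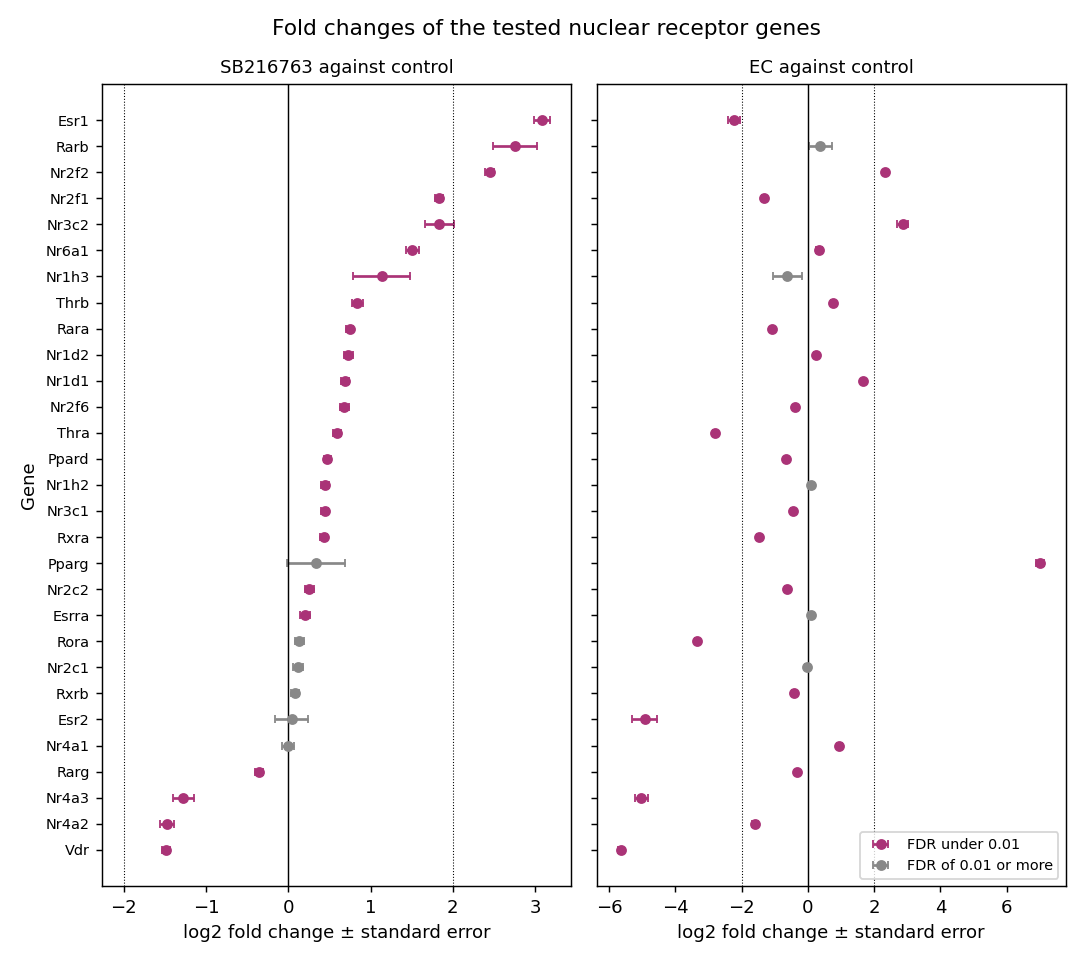
Log2 fold change (x axis) of 29 tested nuclear receptor genes (rows) for treated against control cells (left) and ECs against control cells (right), with bars of 1 SE from edgeR and dotted lines at -2 and 2. Rorb is left out because both osteoblast groups were under the floor of 3 counts per library. Esr1, Rarb and Nr2f2 lie past 2 in the left panel, where no member lies below -1.48, and Pparg lies farthest to the right in the other panel.

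The orphan receptors Nr2f1 (COUP-TFI), Nr2f2 (COUP-TFII) and Nr2f6, which act mostly as repressors, all rose with treatment. Nr2f2 stood at 38.6, 34.4 and 32.99 CPM in the control libraries, 198, 191 and 191 CPM in the treated libraries and 183, 183 and 173 CPM in the ECs. Treated libraries were all higher than control libraries and slightly higher than the ECs, with no overlap. Nr2f2 was thus 5.45-fold higher in treated than in control cells (log2 fold change 2.45, SE 0.057, edgeR adjusted p = 2.34e-15) and 5.07-fold higher in ECs than in control cells (log2 fold change 2.34, SE 0.056, edgeR adjusted p = 1.25e-15). Treated cells and ECs differed by a log2 fold change of 0.11 (95% interval 0.0036 to 0.21, edgeR adjusted p = 0.071), which passed the 0.01 limit when only those 2 groups were fitted (0.14, adjusted p = 0.00281) or when library totals were used (0.18, adjusted p = 0.00345).

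Nr2f1 was measured at 15.9, 15.3 and 14.97 CPM in the control libraries, 54.95, 54.95 and 55.6 CPM in the treated libraries and 6.21, 6.39 and 5.98 CPM in the ECs. It rose with treatment (log2 fold change 1.84, SE 0.048, edgeR adjusted p = 1.09e-14) but was lowest in ECs, 2.497-fold under control (log2 fold change -1.32, SE 0.058, edgeR adjusted p = 3.54e-12), and no libraries of the 3 groups overlapped. Nr2f6 had means of 38.95 ± 1.21, 62.3 ± 4.58 and 29.97 ± 1.26 CPM (SD, n = 3) in control cells, treated cells and ECs, a log2 fold change of 0.68 with treatment (edgeR adjusted p = 1.3e-08). Per length, the summed level of the trio went from 20.2 ± 0.1999 CPM per kb in control to 54.1 ± 1.46 in treated cells and 32.1 ± 0.267 in ECs. Nr2f2 made up 20.3% ± 1.62 of that sum in control, 41.4% ± 1.3 in treated cells and 64.9% ± 1.45 in ECs, while Nr2f1 made up 14.98% ± 0.419, 20.02% ± 0.675 and 3.79% ± 0.109. Per kb of coding sequence the shares of Nr2f2 were 38.7%, 61.7% and 82.8%. For Nr2f1, treated cells and ECs thus lay on opposite sides of control, whereas for Nr2f2 both lay above it.

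Both loci have a transcript on the opposite strand that shares exon bases with the receptor, and the strand setting of the counting is not given in the sources used here. B130024G19Rik, opposite Nr2f2 (chromosome 7, 70351944 to 70366735, GRCm38, minus strand), averaged 0.2401, 3.75 and 2.23 CPM in control cells, treated cells and ECs. A830082K12Rik, opposite Nr2f1 (chromosome 13, 78188973 to 78199757, minus strand), averaged 4.09, 14.8 and 3.35 CPM. These levels moved in the same direction with treatment as the receptor beside them (log2 fold change 3.92 and 1.87, edgeR adjusted p = 4.65e-10 and 6.28e-12), and without strand their reads cannot be told apart from those of the receptors where the exons overlap. Nr2f6, Esrra and Nr2c2 also share exon bases with an expressed gene on the opposite strand, whereas the partners of Nr1h3, Rora and Nr3c2 had at most 3 counts in any library.

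Genes of venous and arterial endothelium were read beside Nr2f2, because COUP-TFII is known to repress Notch signaling and arterial genes in veins. Of 8 venous genes, 6 were tested, 1 rose and 1 fell with treatment at a log2 change of 1 or more (11.1% and 13% of all tested genes). Vwf, the von Willebrand factor, averaged 1.16 CPM in control, 2.42 in treated cells and 256 in ECs, and Nrp2, a coreceptor of VEGF-C, averaged 1302, 106 and 442 CPM. Of 12 arterial genes, all tested, 2 rose and 4 fell, against the same 11.1% and 13%. Dll4, a Notch ligand, rose (0.0679 to 0.701 CPM), whereas Hey1 (1.06 to 0.0369 CPM), a Notch target, Cxcr4 (0.758 to 0.0456 CPM), a chemokine receptor, and Efnb2 (40.9 to 6.44 CPM), the ligand ephrin-B2, fell. The median log2 fold change with treatment was 0.058 for the tested venous genes and -0.87 for the arterial genes, against 0.01 for all tested genes. Several of these genes entered the test through ECs alone. In control and treated libraries Hey2 had 0 counts, Bmx at most 1, Gja5 at most 3 and Flt4 at most 6. The medians thus rest partly on values near the floor, and no direction of either list is read from them. All 6 tested venous genes were at least 2 log2 units lower in treated cells than in ECs (edgeR, adjusted p under 0.01), as were 9 of the 12 arterial genes, the 10 endothelial markers and 15% of all tested genes.

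**Figure D2:**
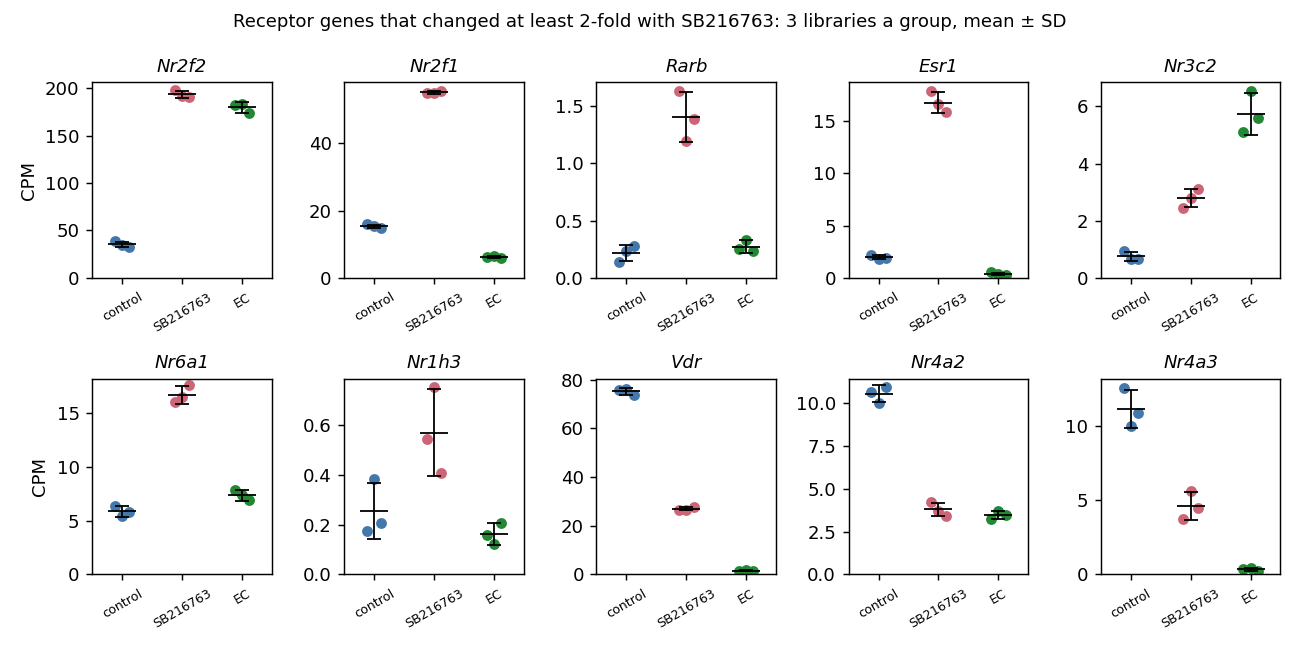
CPM (y axis, linear, from 0) in each of the 9 libraries for the receptor genes that changed between treated and control cells at a log2 change of 1 or more, with a point for each library and lines for the mean ± SD of 3 libraries. Nr2f2 lies near 191 to 198 CPM in treated cells and 173 to 183 CPM in ECs, while Vdr falls from 73.7 to 76.2 CPM in control to 26.5 to 27.7 CPM in treated cells.

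The retinoic acid receptors and their RXR partners changed in their proportions. Rarb, itself a known retinoic acid target, was detected at 0.142, 0.237 and 0.278 CPM in the control libraries, 1.63, 1.199 and 1.39 CPM in the treated libraries and 0.252, 0.335 and 0.232 CPM in the ECs. Every treated library was above every other library, and control cells and ECs overlapped. Rarb rose 6.74-fold with treatment (log2 fold change 2.75, SE 0.27, edgeR adjusted p = 1.38e-07), from 8 to 13 counts per control library to 46 to 57 counts per treated library, so its level stayed low. Its exons share bases with Top2b on the opposite strand, which averaged 236 CPM in control and 206 CPM in treated cells. Rara averaged 75.2 ± 1.62 CPM in control, 126 ± 3.3 in treated cells and 35.7 ± 0.433 in ECs (log2 fold change 0.75, SE 0.041, edgeR adjusted p = 1.21e-10 with treatment), and Rarg averaged 182 ± 4.14, 143 ± 2.03 and 146 ± 5.36 CPM (log2 fold change -0.35, SE 0.043, edgeR adjusted p = 1.66e-06). Per length, the RAR sum was 60.1 ± 1.201 CPM per kb in control and 62.7 ± 1.09 in treated cells, while the share of Rara went from 28.7% ± 0.434 to 46.2% ± 0.541. In ECs the share of Rara was 19.2% ± 0.432, on the other side of control.

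Rxra, the obligate partner for many of these receptors, averaged 184 ± 0.622 CPM in control, 248 ± 10.5 in treated cells and 65.8 ± 1.19 in ECs. Its log2 fold change was 0.43 with treatment (edgeR adjusted p = 1.67e-07) and -1.48 in ECs (adjusted p = 2.31e-14). Rxrb did not pass the limit with treatment (log2 fold change 0.083, 95% interval -0.014 to 0.18), except with library totals (0.29, adjusted p = 5.07e-05), and Rxrg reached 1 count in 1 library. Rxra was 66.4% ± 0.887 of the RXR sum per kb of exon in control, 71.6% ± 0.352 in treated cells and 48.8% ± 0.483 in ECs. Which of Rxra and Rxrb led in ECs depended on the length used, since Rxra made up 59.5% of the sum there per kb of coding sequence.

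Of 10 retinoic acid target genes, 8 were tested, and 3 rose and 2 fell with treatment at a log2 change of 1 or more (11.1% and 13% of all tested genes). Tgm2, transglutaminase 2, went from 4.98 to 51.03 CPM and Crabp2, which carries retinoic acid to the nucleus, from 7.29 to 20.4 CPM. Only 1 of the 2 that fell was called with DESeq2. In the other direction, Cyp26b1, which degrades retinoic acid, went from 74.4 to 3.604 CPM, the largest change of the list. Among 12 enzymes that make or remove receptor ligands, 8 were tested, 1 rose and 3 fell, against the same 11.1% and 13%. Aldh1a3 and Aldh1a1, which make retinoic acid, fell from 0.931 to 0.0634 CPM and from 1.57 to 0.183 CPM. Dio3, which inactivates thyroid hormone, fell from 2.998 to 0.119 CPM, and Hsd11b1, which regenerates active glucocorticoid, rose from 0.138 to 0.663 CPM. The genes of these lists also answer to other regulators, and no receptor activity was measured.

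**Figure D3:**
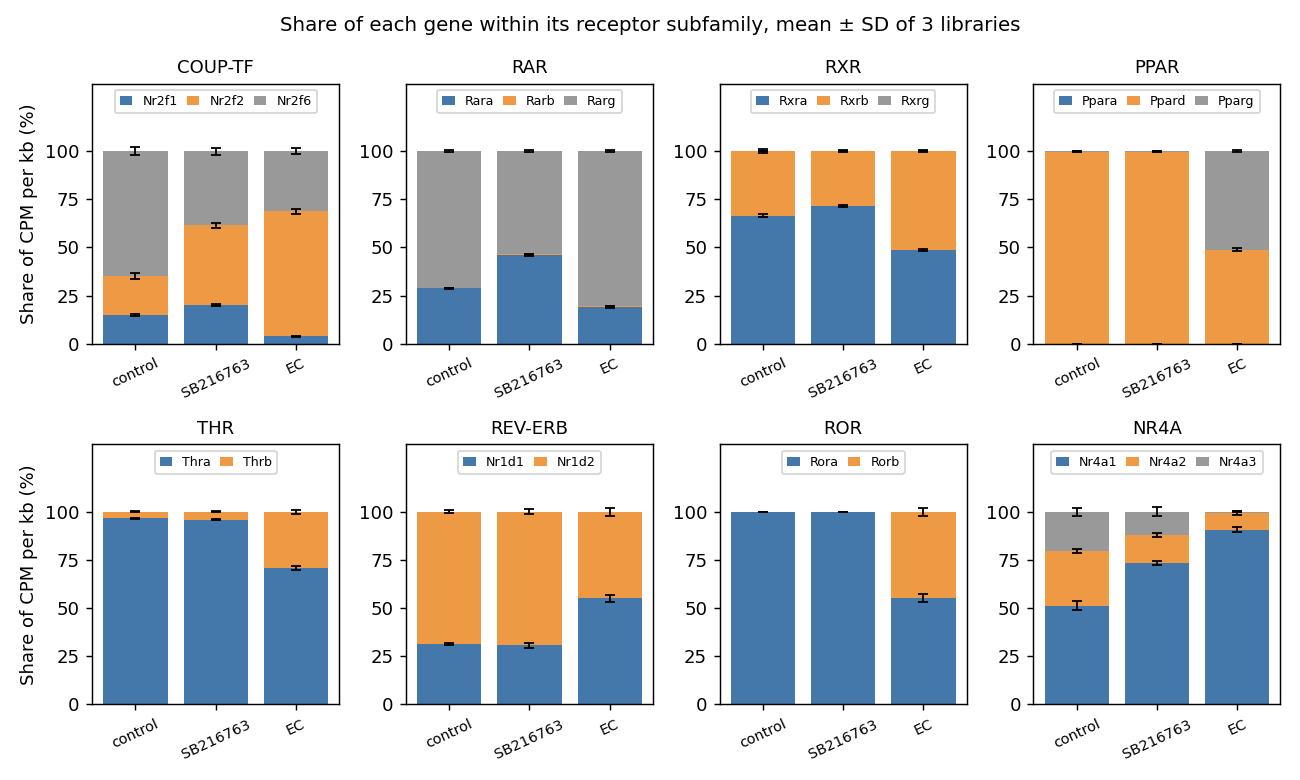
Share (percent, y axis) of each member in the summed CPM per kb of exon of its subfamily, in control cells, treated cells and ECs, as stacked bars of the mean of 3 libraries with SD. Nr2f2 takes 20.3%, 41.4% and 64.9% of the COUP-TF sum in the 3 groups, and Rara takes 28.7%, 46.2% and 19.2% of the RAR sum.

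Among the steroid receptors, Esr1 changed most. Esr1, the estrogen receptor α gene, was present at 2.17, 1.802 and 1.91 CPM in the control libraries, 17.8, 16.6 and 15.8 CPM in the treated libraries and 0.527, 0.396 and 0.324 CPM in the ECs. Treated cells lay above control cells and control cells above ECs, with no overlap. Esr1 rose 8.45-fold with treatment (log2 fold change 3.08, SE 0.099, edgeR adjusted p = 1.29e-13), the largest change of any tested member between treated and control cells, and was 4.71-fold lower in ECs than in control (log2 fold change -2.24, SE 0.18, edgeR adjusted p = 1.19e-08). Esr2, the estrogen receptor β gene, was found at 1.04, 1.51 and 1.63 CPM in the control libraries, 1.35, 1.38 and 1.47 CPM in the treated libraries and 0.0229, 0.0305 and 0.0695 CPM in the ECs. Control and treated libraries of Esr2 overlapped (log2 fold change 0.043, 95% interval -0.35 to 0.43, edgeR adjusted p = 0.865), and the sign of this value turned when control replicate 1 was left out (-0.16). In ECs the 3 libraries held 5 counts of Esr2 in all, so that control exceeded ECs 31.9-fold (95% interval of the ratio from the counts, 13.4 to 99.2, counting error only).

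Nr3c2, the mineralocorticoid receptor gene, was counted at 0.945, 0.674 and 0.6599 CPM in the control libraries, 2.46, 2.81 and 3.105 CPM in the treated libraries and 5.11, 6.55 and 5.58 CPM in the ECs. The groups did not overlap and ECs were highest. Nr3c2 rose 3.56-fold with treatment (log2 fold change 1.83, SE 0.18, edgeR adjusted p = 1.18e-07) and was 7.27-fold higher in ECs than in control (log2 fold change 2.86, SE 0.16, edgeR adjusted p = 7.59e-11), and treated cells were below ECs by a log2 fold change of -1.03 (edgeR adjusted p = 2.87e-06). Nr3c1, the glucocorticoid receptor gene, was far more abundant and averaged 124 ± 4.44, 168 ± 2.05 and 89.8 ± 2.996 CPM in control cells, treated cells and ECs, or 16.1 ± 0.578, 21.9 ± 0.267 and 11.7 ± 0.3899 CPM per kb against 0.117 ± 0.0249, 0.432 ± 0.0495 and 0.888 ± 0.113 for Nr3c2. Its log2 fold change with treatment was 0.44 (edgeR adjusted p = 1.63e-07). Pgr, the progesterone receptor gene, reached at most 1 count in a library.

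Of 12 glucocorticoid receptor targets, 11 were tested, 3 rose and 1 fell (11.1% and 13% of all tested genes). The metallothioneins Mt1 and Mt2 went from 29.9 to 293 and from 0.467 to 3.64 CPM, and Errfi1, a feedback inhibitor of EGF receptor signaling, from 22.7 to 206 CPM. Tsc22d3, known as GILZ and widely used as a glucocorticoid reporter gene, fell from 85.1 to 37.7 CPM. Of 6 estrogen receptor targets, 5 were tested, 2 rose and 0 fell (edgeR, likewise with DESeq2 and limma-voom), against 11.1% and 13% of all tested genes. Ctsd, which encodes cathepsin D, went from 209 to 606 CPM and Cxcl12, a chemokine, from 231 to 508 CPM. In the other direction, Igf1 fell from 35.5 to 18.1 CPM, short of the size limit (log2 fold change -0.98, edgeR adjusted p = 1.84e-09). At any fold, 2 of the list rose and 2 fell, against 32.9% and 32% of all tested genes.

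Vdr, the vitamin D receptor gene, fell with treatment. Vdr was read at 75.97, 76.2 and 73.7 CPM in the control libraries, 26.5, 26.6 and 27.7 CPM in the treated libraries and 1.44, 1.797 and 1.32 CPM in the ECs. The 3 groups did not overlap, with control highest and ECs lowest. The fall with treatment was 2.798-fold (log2 fold change -1.48, SE 0.05, edgeR adjusted p = 2.35e-13), and ECs were 50.2-fold below control (log2 fold change -5.65, SE 0.074, edgeR adjusted p = 6.27e-19). The summed osteoblast markers given above, mostly Col1a1 and Col1a2, were also lower in treated cells, as was Sp7 (298 to 25.98 CPM), while Runx2 averaged 158 and 116 CPM and Dmp1 was higher (0.185 to 66.4 CPM). Their part in the value of Vdr was not tested. Of 8 vitamin D targets only 3 were tested. Spp1, which encodes osteopontin, rose from 210.1 to 4556 CPM and Lrp5, a Wnt coreceptor, from 101 to 477 CPM, while Bglap, which encodes osteocalcin and has near-identical copies that make its counts uncertain, went from 4.32 to 2.001 CPM. The osteoblast marker Bglap2, such a copy, went the other way, from 4.25 to 5.25 CPM (log2 fold change 0.29, edgeR adjusted p = 0.0254). Cyp24a1, the vitamin D hydroxylase most closely tied to the receptor, had too few counts to test.

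Thra, which encodes the thyroid hormone receptor α, was high in osteoblasts, at 146, 148 and 137 CPM in the control libraries, 218, 223 and 208 CPM in the treated libraries and 20.6, 19.9 and 21.2 CPM in the ECs. Treated cells were highest and ECs lowest, with no overlap. The rise with treatment was 1.505-fold (log2 fold change 0.59, SE 0.046, edgeR adjusted p = 8.25e-09), and ECs were 6.98-fold below control (log2 fold change -2.803, SE 0.051, edgeR adjusted p = 3.77e-17). Thra (chromosome 11, 98740638 to 98769006, GRCm38, plus strand) shares bases of its last exon with Nr1d1 on the minus strand (98767932 to 98775333), and the counts of the pair are uncertain there. Thrb, the β receptor gene, averaged 8.05 ± 0.491, 14.4 ± 0.585 and 13.7 ± 0.317 CPM, with a log2 fold change of 0.84 with treatment (edgeR adjusted p = 1.18e-08). Thra made up 96.6% ± 0.213 of the pair per kb in control, 96% ± 0.179 in treated cells and 70.7% ± 1.14 in ECs. Of 6 thyroid hormone targets, 5 were tested, 0 rose and 2 fell (edgeR, likewise with DESeq2 and limma-voom), against 11.1% and 13% of all tested genes. Those that fell were Dio3 and Me1, the cytosolic malic enzyme (185 to 73.2 CPM). In the other direction, Klf9 rose from 28.2 to 53.3 CPM, short of the size limit (log2 fold change 0.92, edgeR adjusted p = 8.93e-11). At any fold, 1 of the list rose and 2 fell, against 32.9% and 32% of all tested genes.

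Among the receptors for fatty acids and oxysterols, Pparg differed most between ECs and osteoblasts. Pparg, the adipogenic receptor gene, was measured at 0.126, 0.164 and 0.104 CPM in the control libraries, 0.172, 0.208 and 0.136 CPM in the treated libraries and 17.6, 17.5 and 18.4 CPM in the ECs. Control and treated libraries overlapped near 0, and all ECs were higher. Pparg was 128-fold higher in ECs than in control (log2 fold change 7.004, SE 0.13, edgeR adjusted p = 5.07e-17), and its value between treated and control cells, a log2 fold change of 0.34, had a 95% interval of -0.35 to 1.03. In ECs the adipocyte markers Adipoq, Lep, Cidec and Retn were under 3 counts in every library, whereas the leukocyte marker Cd68 was at 46.6 CPM, and the part of leukocytes in the level of Pparg was not tested. Ppard averaged 67.9 ± 0.9304, 94.3 ± 5.33 and 43.3 ± 0.499 CPM and made up 99.5% ± 0.146 and 99.5% ± 0.04497 of the PPAR sum per kb in control and treated cells. In ECs the share of Pparg was 51.1% ± 0.587 per kb of exon but 26.4% per kb of coding sequence. Ppara reached at most 1 count per library.

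Of 12 PPAR targets, 9 were tested, 4 rose with treatment and 0 fell (edgeR, likewise with DESeq2 and limma-voom), against 11.1% and 13% of all tested genes. Only 1, Cd36, was lower at an unadjusted p under 0.05. Angptl4, an inhibitor of lipoprotein lipase, went from 0.0392 to 0.894 CPM on 0 to 4 counts per control library, Cpt1a, which brings fatty acids into mitochondria, from 55.7 to 232 CPM, and Plin2, a lipid droplet coat protein, from 37.7 to 108 CPM. Nr1h2, the liver X receptor β gene, averaged 63.8 ± 1.25, 86.8 ± 4.81 and 67.7 ± 2.71 CPM (log2 fold change 0.44, SE 0.049, edgeR adjusted p = 5.98e-07 with treatment). Nr1h3, the α gene, held 11, 21 and 6 counts in the control libraries, 19, 29 and 15 in the treated libraries and 7, 4 and 9 in the ECs. On the CPM scale its treated libraries were above its control libraries, with a log2 fold change of 1.14 (SE 0.35, edgeR adjusted p = 0.00776), but the call was lost with DESeq2 (adjusted p = 0.0235), in the fit of those 2 groups (0.0167) and without control replicate 1 (0.0591) or 3 (0.0232) or treated replicate 1 (0.0178) or 2 (0.061). Of 9 LXR targets, all tested, 2 rose and 2 fell, against the same 11.1% and 13%. Abca1, the cholesterol exporter, rose from 4.58 to 27.8 CPM and Mylip, which degrades the LDL receptor, from 39.3 to 152 CPM, while Scd1, a fatty acid desaturase, fell from 208 to 56.7 CPM and Smpdl3a, a phosphodiesterase, from 2.31 to 0.632 CPM.

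Nr1d1 and Nr1d2 encode the REV-ERB repressors of the circadian clock, and the ROR receptors compete with them for the same sites. Nr1d1 averaged 15.4 ± 0.735, 24.9 ± 0.2298 and 49 ± 1.27 CPM, and Nr1d2 averaged 59.2 ± 1.97, 98.3 ± 6.13 and 70.3 ± 3.84 CPM. Both rose with treatment (log2 fold change 0.69 and 0.73, edgeR adjusted p = 5.72e-09 and 5.48e-09). Rora was seen at 57.4, 49.2 and 53.8 CPM in the control libraries, 59.97, 58.6 and 57.8 CPM in the treated libraries and 5.06, 5.72 and 5.096 CPM in the ECs. It was 10.2-fold lower in ECs (log2 fold change -3.34, SE 0.07, edgeR adjusted p = 2.08e-16), and the difference between treated and control cells was small (log2 fold change 0.14, edgeR adjusted p = 0.0347), passing the 0.01 limit with library totals (0.34) or without control replicate 1 (0.19). Rorb stood at 0.0158, 0.0364 and 0 CPM in the control libraries, 0, 0.0261 and 0.0272 CPM in the treated libraries and 3.64, 4.11 and 3.15 CPM in the ECs. ECs held 430 counts of Rorb in all against 3 in control, a ratio of 176 (95% interval of the ratio from the counts, 59.9 to 858, counting error only).

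Of 14 clock partners and targets, 12 were tested, 3 rose and 1 fell with treatment (11.1% and 13% of all tested genes). Bhlhe41, a clock repressor also known as DEC2, went from 7.93 to 40.4 CPM, Dbp, an output transcription factor, from 2.15 to 5.36 and Per2 from 9.22 to 19.1 CPM, while Nfil3, the repressor that opposes DBP, fell from 45.4 to 14.8 CPM. Clock genes change with the time of day and with serum, and the hour at which each culture was collected is not given in the sources used here.

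The NR4A receptors are immediate-early genes without a classical ligand. Nr4a2 was present at 10.7, 9.99 and 10.97 CPM in the control libraries, 4.21, 3.73 and 3.43 CPM in the treated libraries and 3.25, 3.71 and 3.45 CPM in the ECs. Control libraries were highest, and treated cells and ECs overlapped. Nr4a2 was 2.77-fold lower in treated cells (log2 fold change -1.47, SE 0.089, edgeR adjusted p = 4.09e-10) and 3.04-fold lower in ECs (log2 fold change -1.602, SE 0.089, edgeR adjusted p = 8.41e-11), and treated cells and ECs did not differ past the limit (log2 fold change 0.13, 95% interval -0.075 to 0.34). Nr4a3, whose promoter holds the 3 TGACGT motifs shown above, was at 12.6, 10.1 and 10.9 CPM in the control libraries, 3.75, 5.66 and 4.47 CPM in the treated libraries and 0.389, 0.426 and 0.232 CPM in the ECs. No libraries of the 3 groups overlapped. It was 2.42-fold lower with treatment (log2 fold change -1.27, SE 0.13, edgeR adjusted p = 2.07e-07) and 32.5-fold lower in ECs (log2 fold change -5.02, SE 0.203, edgeR adjusted p = 1.2e-12). Nr4a1 averaged 16.5 ± 0.378 CPM in control and 16.5 ± 1.01 CPM in treated cells, with a 95% interval of its log2 fold change of -0.14 to 0.14, and 31.9 ± 2.87 CPM in ECs (log2 fold change 0.95, SE 0.067, edgeR adjusted p = 1.76e-09). As a result Nr4a1 made up 51.4% ± 2.22 of the NR4A sum per kb in control, 73.4% ± 1.07 in treated cells and 90.8% ± 1.39 in ECs.

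Nr6a1, the germ cell nuclear factor gene, which is known from embryonic and germ cells as a repressor, rose with treatment. It was counted at 6.35, 5.39 and 5.83 CPM in the control libraries, 16, 16.5 and 17.6 CPM in the treated libraries and 7.88, 7.34 and 6.88 CPM in the ECs. Treated libraries lay above the rest and ECs above control, 2.84-fold for treatment (log2 fold change 1.51, SE 0.078, edgeR adjusted p = 5.91e-11) and 1.25-fold for ECs (log2 fold change 0.33, SE 0.085, edgeR adjusted p = 0.00218). The call in ECs was lost without control replicate 2 (0.25, adjusted p = 0.0167) or EC replicate 1 (0.28, adjusted p = 0.0152). Esrra, an orphan regulator of mitochondrial genes, averaged 37.96 ± 2.79, 43.95 ± 2.31 and 40.5 ± 1.83 CPM (log2 fold change 0.21, SE 0.058, edgeR adjusted p = 0.00488 with treatment). Of 9 ERR targets, all tested, 1 rose and 1 fell (11.1% and 13% of all tested genes). Vegfa, the endothelial growth factor, rose from 61.5 to 192 CPM, and Cycs, cytochrome c, fell from 109 to 53.8 CPM. Of the testicular receptors, Nr2c1 passed the limit in no comparison except with library totals (0.32 with treatment, adjusted p = 0.000239, and 0.23 for treated cells against ECs, adjusted p = 0.00306), with means from 22.8 to 25.3 CPM, and Nr2c2 averaged 61.3 ± 4.99, 73.3 ± 1.62 and 39.8 ± 1.02 CPM (log2 fold change 0.26 with treatment, edgeR adjusted p = 0.000463).

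**Figure D4:**
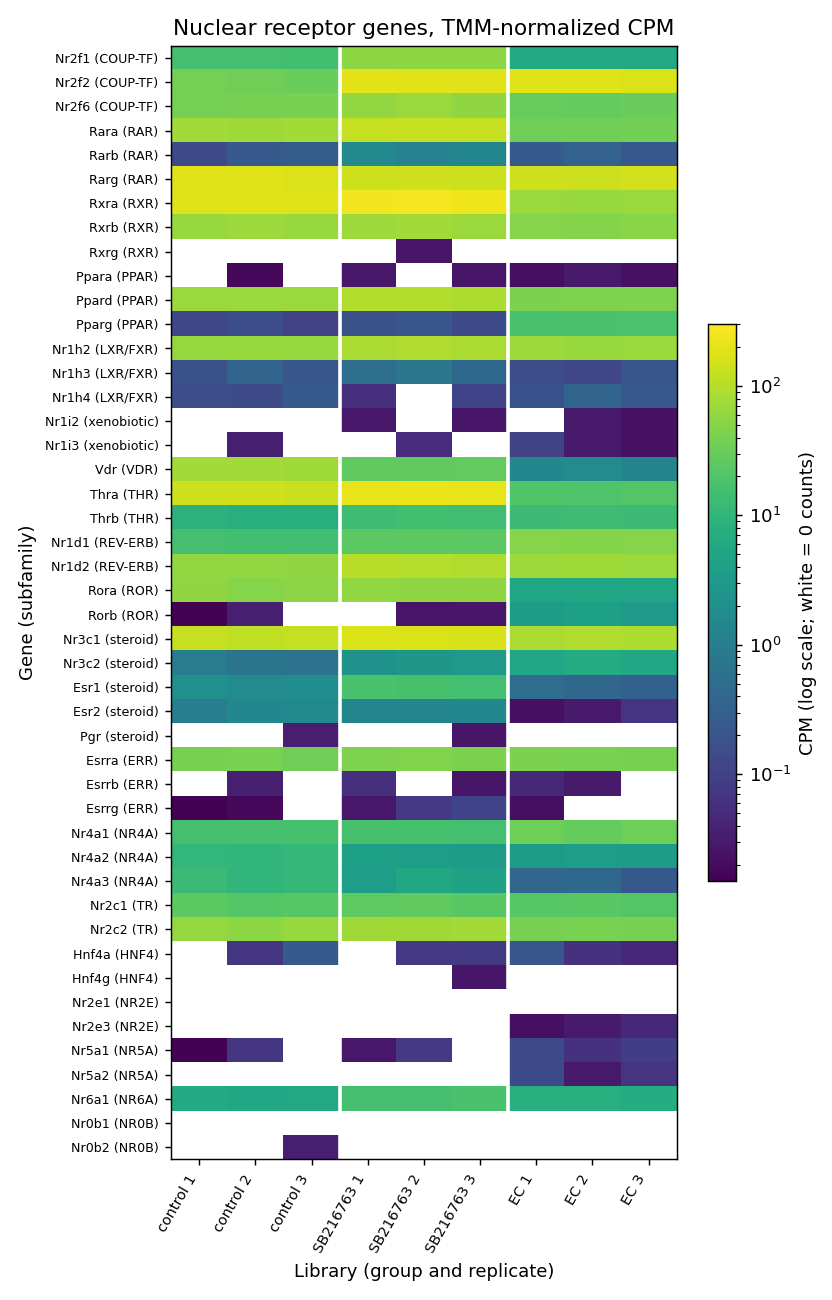
Level of the 46 receptor genes (rows, grouped by subfamily) in the 9 libraries (columns), as CPM on a logarithmic color scale. White cells mark 0 counts. Rarg, Rxra, Thra and Nr3c1 are among the rows with high counts in control cells, and rows such as Nr0b1 and Nr2e1 are white throughout.

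Per length, the order of the members differed between the groups. In control cells Rarg (42.8 ± 0.971 CPM per kb of exon), Rxra (33.6 ± 0.114) and Thra (31.1 ± 1.23) led. In treated cells Thra (46.9 ± 1.63) and Rxra (45.3 ± 1.92) led and lay within their SD of each other, followed by Rarg (33.5 ± 0.475) and Rara (28.98 ± 0.756). In ECs Rarg (34.3 ± 1.26) led, followed by Nr2f2 (20.8 ± 0.621) and Nr1h2 (20.2 ± 0.807), while Thra stood at 4.46 ± 0.142. Nr2f2 and Nr1h2 did not differ beyond their SD there. The order depended on the length used, and per kb of coding sequence, an alternative chosen after seeing the data, Rxra led in control cells (131 ± 0.444 CPM per kb) and in treated cells (177 ± 7.46), and Nr2f2 led in ECs (139.8 ± 4.17) ahead of Rarg (95.96 ± 3.51).

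ECs differed from control cells in both directions. Past 2 on the log2 scale, ECs had 4 members higher (Nr2f2, Pparg, Rorb and Nr3c2), against 13.5% of all tested genes, and 6 lower (Vdr, Thra, Rora, Esr1, Esr2 and Nr4a3), against 9.87% (edgeR, adjusted p under 0.01). At 1 or more on that scale 5 were higher (21.2%) and 10 lower (17.5%), at any fold 9 were higher (39%) and 16 lower (37.9%), and 9 lay higher and 16 lower with no overlap of libraries (42.6% and 41.4% of all tested genes). The median log2 fold change was -0.40 over the tested members and 0.01 over all tested genes. Between treated cells and ECs, 8 members were higher in treated cells (Nr2f1, Rarb, Vdr, Thra, Rora, Esr1, Esr2 and Nr4a3), against 10.3% of all tested genes, and 2 were lower (Pparg and Rorb), against 15%. At 1 or more, 14 were higher (19.2%) and 3 lower (23.2%), at any fold 19 were higher (38.3%) and 5 lower (40.3%), and 20 lay higher and 5 lower with no overlap (41.6% and 43.8%). The median here was 0.89 over the tested members and -0.02 over all tested genes. Pparg and Rorb, both highest in ECs, stayed near 0 in treated cells, while Nr3c2 lay between control and ECs. In the main fit Nr2f2 in treated cells was above ECs by a log2 fold change of 0.11 (95% interval 0.0036 to 0.21).

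Coregulators through which the receptors act were counted in the same way. Of 18 coactivators, 17 were tested, and 1 rose and 1 fell with treatment at a log2 change of 1 or more (11.1% and 13% of all tested genes), Ncoa7 from 22.9 to 47.9 CPM and Med14, a Mediator subunit, from 107 to 47.2 CPM. All 11 corepressors were tested, and their log2 fold changes lay between -0.29 and 0.66, so that 0 reached the size limit at any p, adjusted or not (edgeR, likewise with DESeq2 and limma-voom). At any fold, 7 coactivators rose and 7 fell, and 3 corepressors rose and 1 fell, against 32.9% and 32% of all tested genes. The median log2 fold change was -0.13 for the coactivators and 0.14 for the corepressors, against 0.01 for all tested genes.

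The 16 members that were not tested include receptors known from liver, gut, adrenal, gonad and retina. Of these, 10 had at most 3 counts in every library, among them Hnf4g, Pgr, Ppara, Rxrg, Nr1i2, the pregnane X receptor gene, and Nr0b2, each with at most 1 count, Esrrb and Nr2e3 with at most 2, and Nr2e1 and Nr0b1 with 0. The remaining 6 had highest counts of 12 for Nr1h4, the farnesoid X receptor gene, 9 for Hnf4a, 6 for the steroidogenic regulators Nr5a1 and Nr5a2, 5 for Nr1i3 and 4 for Esrrg. Counts of Nr1h4 were 10, 8 and 7 in control cells, 2, 0 and 4 in treated cells and 8, 12 and 10 in the ECs, so that its treated libraries lay below both other groups without overlap, and Nr5a2 had 6, 1 and 3 counts in the ECs and 0 in every other library. These differences were not tested. A count of 0 in a library allows a true level of up to 3 counts, which covers counting error only.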

How the data were processed

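Gene counts from RNA-seq of 9 libraries, 3 per group, were deposited by the authors as raw counts per Ensembl gene, made by alignment and gene counting with STAR, version 2.5.3a on GRCm38 per the submitters' processing notes. The annotation release and strand setting are not given in the sources used here. Every column of the table was matched to a sample by its title. Genes were filtered with filterByExpr, scaled by TMM and tested with edgeR 4.0.16 (R 4.3.3) by the quasi-likelihood F-test, with all 9 libraries in 1 fit, no covariate and Benjamini-Hochberg adjustment over 15531 genes. Fold changes used a prior count of 0.125, and 95% intervals came from the fitted value and its SE. Calls used the cutoffs of the study, log2 changes of 2 or more in size and an adjusted p under 0.01, and a lower size limit of 1. Exon and coding lengths, symbols and positions for 50376 genes were from GENCODE M21 (GRCm38). Of the members, 13 share exon bases with another gene.

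Values in every library were given for members past a log2 fold change of 1 with treatment, or past 2 in ECs against control. From each list of other genes up to 4 past a log2 fold change of 1 with treatment were named, the largest first, and some genes that this rule names are not reported here. The 46 members and the 23 gene lists were chosen with earlier results of these data known. Library totals, size factors, filters, DESeq2 1.42.0, limma-voom (limma 3.58.1), the groups in the fit, the replicate block, thresholds, the prior count and each library in turn were tried as alternatives. In a test on simulated data with 200 changed genes of 15531 at a log2 fold change of 3, edgeR called 200 and no other gene. Every simulated gene had the same spread, and the changed genes were taken from those with enough counts. The simulation therefore does not cover smaller changes, low counts or the wider spread of some real replicates. Replicates differed beyond sampling noise in every pair, with a chi-square per gene of 3.05 to 115. Intervals from counts cover counting error only.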

Additional observations from a re-analysis of the deposited data

How the results depend on the processing

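Counts of members called moved mainly with the size limit. With a log2 change of 1 or more in place of 2, the members higher and lower in treated than in control cells went from 3 and 0 to 7 and 3, those lower in ECs than in control went from 6 to 10, and those higher in treated cells than in ECs from 8 to 14. At any fold the counts were 19 and 4 for treatment, 9 higher and 16 lower for ECs against control, and 19 higher and 5 lower for treated cells against ECs. Scaling by library totals alone gave 5 members higher with treatment, adding Nr2f1 and Nr3c2. The other planned settings, and leaving out any single library, kept each of these counts within 1.5 times its value. With the replicate number as a block the counts were 3 and 0, 4 and 6, and 8 and 2, the same as without it. Libraries of the same number deviated from their group means with correlations of -0.0392 to 0.123, and 1 of 9 libraries correlated best with its own number, so the numbers were not taken to pair the libraries.

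For the 15 members with values in every library, 601 of the single values under the alternatives kept their direction and their side of the limit, 4 gained a call, 8 lost one and 1 changed sign, Esr2 with treatment without control replicate 1 (-0.16, adjusted p = 0.487, with a range of -0.16 to 0.13 over the libraries left out in turn). The gained or lost calls of these 15 belong to Nr2f2, Rora, Nr1h3 and Nr6a1, and the causes were not tested. Among the other tested members, compared under library totals alone, Rxrb and Nr2c1 with treatment, Nr1h2 and Esrra in ECs against control, and Nr2c1 and Esrra in treated cells against ECs gained a call, and Nr4a1 with treatment, Nr2c1 in ECs against control and Rarg in treated cells against ECs changed sign. Depth limits Nr1h3, Rarb, Esr2, Rorb and the members that were not tested. Shares within a subfamily depend on the length used, and for the RXR, PPAR, REV-ERB and TR genes the leading member in ECs changed with coding length, as did the leading receptor of each group.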
